A study of Mus musculus with 9 samples.

Results

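The genes described here encode the contents of cytotoxic granules and the proteins that keep them in check: the granzymes Gzma, Gzmb, Gzmk and Gzmm, perforin (Prf1), the granule proteoglycan serglycin (Srgn), the granule membrane protein Nkg7, and the protease inhibitors Cst7, Serpinb9 and Serpinb6b. They were taken as every probe set of the array annotated to 1 of these symbols and to no other gene, which gave 12 probe sets for 10 genes, of 34945 single-gene probe sets for 18193 genes. All 10 genes lay above the filter on low levels and were tested. The RNA was that of thymic invariant natural killer T cells (iNKT cells), a lymphocyte type with a near-constant T cell receptor, from sex- and age-matched mice 8 to 12 weeks old. The labels give 4 biological replicates of Utx knock out cells (KO1 to KO4) and 5 of Utx wildtype cells (WT1 to WT5), and the title of the series frames the question as how loss of the histone H3 lysine 27 demethylase Utx (gene Kdm6a) alters the lineage program of these cells. The way Utx was deleted, the cells in which it was deleted, the sorting gate and any pooling of animals are not given in the sources used here. Batch 1 held KO1 and WT1, batch 2 held KO2, KO3, KO4 and WT2, and batch 3 held WT3, WT4 and WT5.

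Levels are log2 values per array, and a difference is knockout minus wildtype on that scale, estimated by limma with batch as a factor. Batch 3 held no knockout sample, so WT3, WT4 and WT5 entered the estimate of the spread and not the difference itself. Each fitted difference rests on KO1 to KO4 against WT1 and WT2, and is not the difference of the group means printed beside it. A gene was called when its p-value, adjusted by Benjamini-Hochberg over all 14524 genes tested, was below 0.05. The deposited values carried no batch difference that the batch term could detect: it had an unadjusted p under 0.05 for 0 of the 14524 genes and an adjusted one for 0. Arrays with independent errors and no batch difference would give more genes at that unadjusted p. The batch 3 wildtype mean lay a median of 0.006 from the wildtype mean, where the median wildtype SD was 0.19. The deviations of KO1 and WT1 from their group means correlated at -0.92 over genes. Differences within batches 1 and 2 are given beside the members, the called pathway genes and the marker lists, and they do not stand for values free of an earlier adjustment. The same limit holds for the limma p-values, which take the errors of the arrays as independent. The 4 probe sets of Kdm6a gave no called difference (-0.46 to 0.52, adjusted p 0.127 to 0.976 over probe sets), and whether they lie in the deleted part is not given. Of all genes tested, 3.37% were called lower and 7.88% higher. Of 9 iNKT and T cell genes tested, Cd44 (-1.23) and Il2rb (-1.01) fell (limma adjusted p 0.0135 and 0.0231) and 0 rose. The other 7 ran from -0.37 for Cd3g, whose knockout samples were all below the wildtype samples, to 0.31 for Cd5 (limma adjusted p 0.222 to 0.993), and Zbtb16, which encodes the iNKT transcription factor PLZF, had -0.22. The median difference of the list was -0.14 (-0.20 in batch 1 and -0.10 in batch 2). The summed level of the list was 14.86 to 15.04 in knockout and 15.20 to 15.30 in wildtype samples (log2 of the sum).

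Killer lymphocytes store granzymes, which are serine proteases, and perforin, which opens the membrane of the target cell, in acidic granules. There they are bound to the sulfated chains of serglycin, and Nkg7 supports the release of granules. Granzymes are made as inactive precursors that cathepsin C trims, and Cst7 (cystatin F) inhibits this class of cathepsins. Serpinb9 inhibits granzyme B and protects the killer cell from its own protease, and mouse Serpinb6b inhibits granzyme A. Among thymic iNKT cells, granule genes are known chiefly from the NKT1 subset, which makes interferon gamma.

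In knockout cells Gzmb, Srgn, Cst7 and Serpinb9 fell, while Gzma, Gzmk, Gzmm and Prf1 were not called. Thus 4 of the 10 genes were lower and 0 higher, where 3.37% of all genes tested were called lower and 7.88% higher. Nkg7 and Serpinb6b had differences of -0.81 and -0.79 and lay just above the threshold (adjusted p = 0.0502 and 0.0614 by limma). The fitted difference was below 0 for 8 of the 10 genes, against 40.7% of all genes (after another quantile normalization Gzma and Gzmm changed sign, to -0.05 and 0.02), and it was below 0 within batch 1 and within batch 2 for 8 of the 10, against 26.4%. The median over the 10 genes was -0.67, against 0.11 over all genes tested, and it was -0.87 within batch 1 and -0.50 within batch 2. In these bulk samples fewer cells with granules and less granule RNA per cell cannot be told apart.

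The promoters of the 4 genes that fell are shown with that of Gzma, which did not. The motifs were chosen after Runx3 and T-bet (Tbx21), known regulators of granule genes, were seen to differ in the same cells. Those calls held in 2 of 9 fits without 1 array for Runx3 and in 3 of 9 for Tbx21. Binding was not measured, and a part of either factor in the granule results was not tested. Sequences run from 250 bases before to 50 bases after the annotated start, from RefSeq on GRCm38.p6, and capitals mark the Runx core TGTGGT or its reverse complement ACCACA. They lie at chr14:56262285-56262584 (minus strand) for Gzmb, chr10:62507708-62508007 (minus strand) for Srgn, chr2:150570165-150570464 (plus strand) for Cst7, chr13:33004291-33004590 (plus strand) for Serpinb9 and chr13:113100932-113101231 (minus strand) for Gzma.
Gzmb: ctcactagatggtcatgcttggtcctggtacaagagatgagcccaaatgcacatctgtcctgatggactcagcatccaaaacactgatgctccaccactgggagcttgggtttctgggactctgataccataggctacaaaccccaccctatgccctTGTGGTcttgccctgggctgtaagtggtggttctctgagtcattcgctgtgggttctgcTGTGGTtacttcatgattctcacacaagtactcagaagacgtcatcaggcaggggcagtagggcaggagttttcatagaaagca
Srgn: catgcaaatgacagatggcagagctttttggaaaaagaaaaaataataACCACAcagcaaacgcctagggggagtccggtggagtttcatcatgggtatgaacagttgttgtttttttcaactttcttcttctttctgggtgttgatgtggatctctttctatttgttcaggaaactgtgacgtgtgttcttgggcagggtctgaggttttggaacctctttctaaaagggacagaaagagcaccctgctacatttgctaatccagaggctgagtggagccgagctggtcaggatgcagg
Cst7: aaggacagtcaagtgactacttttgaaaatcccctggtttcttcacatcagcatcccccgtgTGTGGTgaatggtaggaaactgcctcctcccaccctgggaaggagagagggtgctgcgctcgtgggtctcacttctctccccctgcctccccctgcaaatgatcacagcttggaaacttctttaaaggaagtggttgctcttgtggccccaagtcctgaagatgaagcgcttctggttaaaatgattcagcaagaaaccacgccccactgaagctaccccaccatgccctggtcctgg
Serpinb9: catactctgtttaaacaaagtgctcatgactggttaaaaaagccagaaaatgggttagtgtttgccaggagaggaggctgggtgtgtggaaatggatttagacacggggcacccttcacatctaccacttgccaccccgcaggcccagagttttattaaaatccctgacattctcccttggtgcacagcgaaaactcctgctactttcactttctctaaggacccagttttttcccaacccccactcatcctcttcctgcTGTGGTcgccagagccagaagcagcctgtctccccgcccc
Gzma: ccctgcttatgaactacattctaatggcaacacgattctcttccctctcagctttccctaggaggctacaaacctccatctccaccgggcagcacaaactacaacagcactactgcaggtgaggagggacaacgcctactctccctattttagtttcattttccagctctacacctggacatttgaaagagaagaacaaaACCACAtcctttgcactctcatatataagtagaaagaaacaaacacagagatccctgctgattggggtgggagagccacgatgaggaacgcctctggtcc

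The Runx core occurred 2 times in the Gzmb window, starting 93 and 34 bases before the start site. It occurred 1 time in each of the other 4 windows shown, from 202 bases before the start site in Srgn to 11 bases into the transcript in Serpinb9. Srgn has another annotated window (chr10:62527396-62527695, minus strand), not shown, with 0 Runx cores. Over all members the Runx core was in 8 of 12 promoter windows and 8 of 10 genes (not in Gzmk or Serpinb6b), against 16.8% of the 32851 promoter windows of the reference. The Ets core AGGAAG was in 6 of the 10 genes (35.4% of all windows), and the T-box motif GGTGTGA was in 3 of 10, Gzmk, Gzmm and Nkg7 (3.98% of all windows). All motifs were searched on both strands. The TATA box TATAAA was in Srgn alone among the 10 (13.6% of all windows), in its other window. These matches are letters in a window and were present in members that fell and in members that did not. By gene order, Gzma and Gzmk are neighbours on chromosome 13, as are Serpinb6b and Serpinb9 elsewhere on it, and Gzmb lies next to Gzmc on chromosome 14.

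Among the granzymes, Gzmb stood below wildtype in every knockout sample and Gzma did not. Gzmb, which cleaves caspases in target cells, read 10.51, 10.97, 10.45 and 10.13 in KO1 to KO4, against 11.80, 11.81, 11.77, 11.98 and 11.81 in WT1 to WT5. The groups did not overlap, and the knockout samples were spread more widely. Gzmb averaged 10.51 ± 0.35 in knockout cells (SD, n = 4) and 11.83 ± 0.09 in wildtype cells (SD, n = 5). Its fitted difference was -1.29 (SE 0.23, adjusted p = 0.0135 by limma), or 2.45-fold lower. The difference was -1.29 within batch 1 and -1.29 within batch 2. The call ended without WT2 (-1.29, adjusted p = 0.0951 by limma), where batch 1 alone carries the difference.

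Gzma, a granzyme with tryptase activity, read 11.72, 11.56, 11.00 and 11.57 in KO1 to KO4, against 11.23, 11.64, 11.24, 11.72 and 11.39 in WT1 to WT5. The groups overlapped throughout, and KO3 was the lowest of all 9 samples. The difference was 0.04 (SE 0.26, adjusted p = 0.932 by limma), with a 95% interval of -0.55 to 0.63, and it had opposite signs within batch 1 (0.49) and batch 2 (-0.26). The interval for Gzmb ran from -1.83 to -0.76 and did not meet that of Gzma, but the difference between these genes was not itself tested.

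Gzmk, another tryptase-like granzyme, and Gzmm, which cuts after methionine, had low levels. Gzmk read 4.86, 5.21, 4.81 and 4.82 in KO1 to KO4, against 5.31, 5.46, 5.12, 5.75 and 5.12 in WT1 to WT5. KO2 overlapped the wildtype samples, and the difference was -0.49 (SE 0.23, adjusted p = 0.188 by limma; 95% interval -1.01 to 0.04), with -0.45 in batch 1 and -0.51 in batch 2. Gzmm read 4.95, 4.82, 5.19 and 4.91 in KO1 to KO4, against 5.09, 5.03, 4.83, 5.27 and 5.10 in WT1 to WT5, with the groups overlapping and a difference of -0.09 (SE 0.19, adjusted p = 0.771 by limma; 95% interval -0.52 to 0.34) that was -0.14 in batch 1 and -0.06 in batch 2. Their means over all arrays stood at the 35.6 and 33.3 percentiles of all probe sets, where the filter stood at the 25th (4.54). Whether their signal was above background was not measured.

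**Figure D1:**
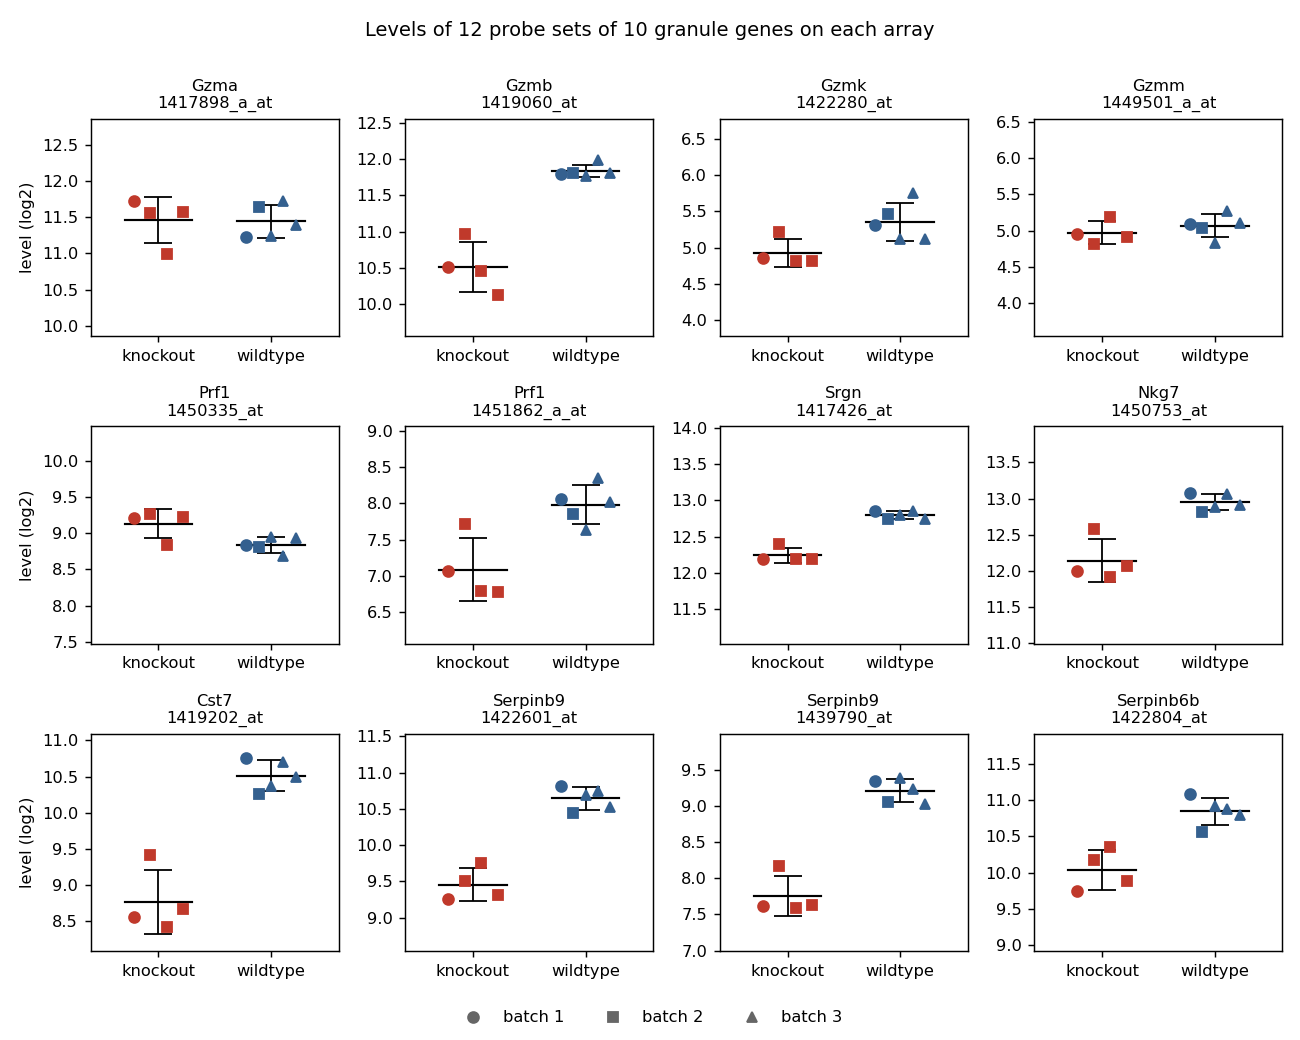
Levels (log2, y axis, each panel spanning 3 log2 units) of the 12 probe sets on the 4 knockout and 5 wildtype arrays, with horizontal bars at group means, error bars of 1 SD and marker shapes for batches. The groups stand apart for Gzmb, Srgn, Nkg7, Cst7, both Serpinb9 probe sets and Serpinb6b, and overlap for Gzma, Gzmk, Gzmm and both Prf1 probe sets.

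Perforin gave an answer that depended on the probe set. On 1450335_at, the brighter one and the one used for the gene, Prf1 read 9.21, 9.27, 8.83 and 9.22 in KO1 to KO4, against 8.84, 8.81, 8.95, 8.68 and 8.93 in WT1 to WT5. Of the knockout samples 3 were above all wildtype samples and KO3 lay among them, with a difference of 0.33 (SE 0.18, adjusted p = 0.255 by limma). On 1451862_a_at it read 7.06, 7.71, 6.79 and 6.77 in KO1 to KO4, against 8.06, 7.85, 7.64, 8.35 and 8.02 in WT1 to WT5. Here 3 knockout samples were below all wildtype samples and KO2 was above WT3. The difference was -0.85 (SE 0.31, adjusted p = 0.112 by limma over probe sets), and without KO2 it was called (-1.04, adjusted p = 0.0269). Within batches 1 and 2 the differences were 0.37 and 0.30 on the first probe set and -0.99 and -0.76 on the second. The annotation ties both to Prf1 through different transcripts' accessions, and no direction is given for Prf1.

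Srgn and Nkg7, the matrix and membrane components, had mean levels at the 99.2 percentile of all probe sets. Srgn read 12.19, 12.40, 12.19 and 12.19 in KO1 to KO4, against 12.86, 12.75, 12.80, 12.85 and 12.75 in WT1 to WT5. All knockout samples were below all wildtype samples, with KO2 closest to them, and the difference of -0.56 (SE 0.15, adjusted p = 0.0474 by limma) was a 1.47-fold fall, with -0.66 in batch 1 and -0.49 in batch 2. The call was lost when any single array other than KO2 was left out (-0.66 to -0.49, adjusted p 0.0719 to 0.182), and in the fit over all probe sets (adjusted p = 0.0593). Nkg7 read 12.00, 12.58, 11.92 and 12.06 in KO1 to KO4, against 13.07, 12.82, 12.89, 13.07 and 12.91 in WT1 to WT5, again without overlap and with KO2 closest to wildtype. Its difference was -0.81 (SE 0.22, adjusted p = 0.0502 by limma), with -1.07 in batch 1 and -0.63 in batch 2, and -0.93 (adjusted p = 0.0114) without KO2.

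Among the inhibitors, Cst7 had the largest fitted difference of the 10 genes. It read 8.57, 9.41, 8.42 and 8.67 in KO1 to KO4, against 10.75, 10.26, 10.37, 10.70 and 10.49 in WT1 to WT5. The highest knockout sample, KO2, was below the lowest wildtype sample, WT2. Cst7 averaged 8.77 ± 0.44 in knockout cells (SD, n = 4) and 10.51 ± 0.21 in wildtype cells (SD, n = 5). Its fitted difference was -1.73 (SE 0.30, adjusted p = 0.0119 by limma), or 3.31-fold lower. The difference was -2.18 in batch 1 and -1.42 in batch 2, and the call held without each of the 9 arrays in turn (highest adjusted p 0.0428). These fits are fewer than 9 separate checks. The difference was unchanged at -1.73 without WT3, WT4 or WT5, and was -1.42 both without WT1 and without KO1. Without the batch 3 arrays together the call was lost (-1.73, adjusted p = 0.0562 by limma).

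Serpinb9 read 9.25, 9.51, 9.75 and 9.31 in KO1 to KO4, against 10.81, 10.45, 10.69, 10.75 and 10.52 in WT1 to WT5 on the probe set 1422601_at. The groups did not overlap, and the difference was -1.18 (SE 0.20, adjusted p = 0.0117 by limma), or 2.26-fold lower, with -1.56 in batch 1 and -0.92 in batch 2. The second probe set of Serpinb9, 1439790_at, read 7.61, 8.17, 7.59 and 7.63 in KO1 to KO4, against 9.34, 9.05, 9.39, 9.23 and 9.03 in WT1 to WT5. It had a difference of -1.44 (SE 0.23, adjusted p = 0.00899 by limma over probe sets), with -1.73 in batch 1 and -1.26 in batch 2, so that both probe sets of this gene fell. The gene's call held without each of the 9 arrays in turn (highest adjusted p 0.042). As for Cst7, these are fewer than 9 separate checks, and the call was lost without the batch 3 arrays together (-1.18, adjusted p = 0.0588 by limma). Over probe sets, 4 of the 12 were called lower (Gzmb, Cst7 and both of Serpinb9), against 3.02% of all 26876 probe sets tested, and 0 were called higher, against 6.46%.

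Serpinb6b read 9.75, 10.17, 10.36 and 9.89 in KO1 to KO4, against 11.08, 10.56, 10.92, 10.88 and 10.79 in WT1 to WT5. The groups did not overlap, though KO3 and WT2 were near each other, and the difference was -0.79 (SE 0.23, adjusted p = 0.0614 by limma). It was -1.34 in batch 1 and -0.42 in batch 2, the widest gap between batches among the 10 genes. Serpinb6b was called without WT2 (-1.34, adjusted p = 0.0334 by limma), and without WT1 or KO1 its difference was -0.42 (adjusted p 0.238 and 0.237). A term for a genotype difference that varied between these batches was called for 0 of the 10 genes (Serpinb6b adjusted p = 0.352, unadjusted p = 0.0379, the single member with an unadjusted p under 0.05) and for 3 of all 14524.

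**Figure D2:**
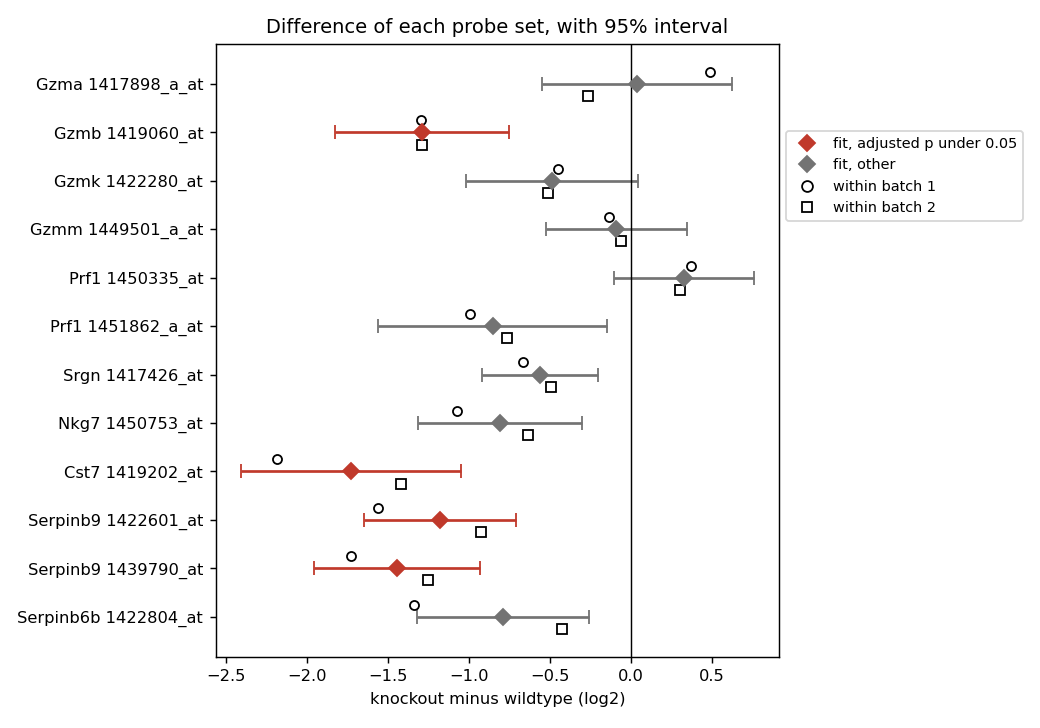
Knockout minus wildtype difference (log2, x axis) of each of the 12 probe sets in the fit over all probe sets, as diamonds with 95% intervals, with open circles for batch 1 and open squares for batch 2. Red diamonds (Gzmb, Cst7 and both probe sets of Serpinb9) have an adjusted p under 0.05, the 2 Prf1 probe sets lie on opposite sides of 0, and Srgn, called in the fit with 1 probe set per gene, is grey here.

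In all, 6 of the 10 genes had every knockout sample below every wildtype sample (Gzmb, Srgn, Nkg7, Cst7, Serpinb9 and Serpinb6b), against 12.7% of all genes tested, and 0 of the 10 had every knockout sample above. The knockout samples differed among themselves. KO2 was closest to the wildtype mean for 6 of the 10 genes, and its median gene lay 0.39 below that mean (log2 -0.39), against -0.78, -0.57 and -0.75 in KO1, KO3 and KO4. KO3 was the lowest knockout sample for 5 genes. Without KO2, 5 members were called lower, Nkg7 being added to the 4, against 3.83% of all genes tested.

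**Figure D3:**
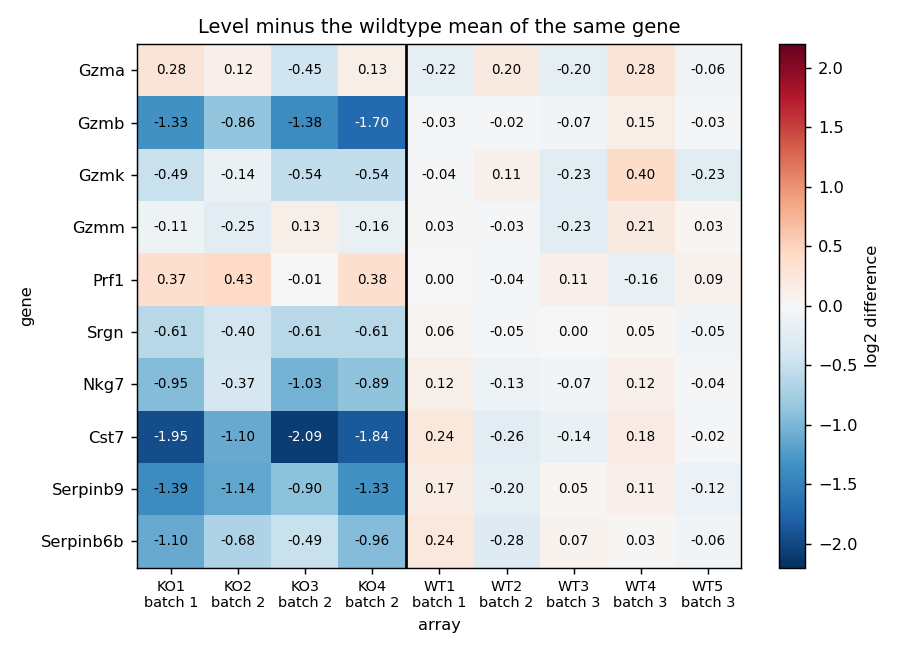
Level of each of the 10 genes minus its own wildtype mean (log2, colour and printed values) on each array, knockout arrays at the left of the black line. Cst7, Gzmb and Serpinb9 are at or below -0.86 on all 4 knockout arrays, whereas Gzma, Gzmm and Prf1 change sign among them.

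Genes that mark other cells also differed. Of all genes tested, 7.88% were called higher and 3.37% lower, and no marker list was tested as a set. Of 12 markers of double-positive thymocytes tested, 9 were higher in knockout cells, with a median difference of 1.34 (2.07 in batch 1 and 0.86 in batch 2) and summed levels of 15.24 to 15.84 in knockout and 14.24 to 14.76 in wildtype samples (log2 of the sum). Macrophage and dendritic cell markers were higher for 6 of 16, with a median of 1.23 (1.97 in batch 1 and 0.67 in batch 2) and summed levels of 12.93 to 13.49 in knockout and 11.34 to 11.87 in wildtype samples, while Itgam stayed under the level filter. The 6 were H2-Ab1, Csf1r, H2-Aa, Cd74, Cd68 and Lyz2. The sums are mostly those of H2-Aa, H2-Ab1 and Cd74 (knockout means 11.01, 10.97 and 11.74). The 10 not called ran from -0.14 for Siglech to 2.47 for C1qb, with Flt3 at -0.06 and Adgre1 at 0.35. KO2 had the smallest median shift of the 4 knockout samples on these 2 lists, 1.05 for double-positive and 0.64 for macrophage and dendritic cell markers, against 1.23 to 1.70 and 1.04 to 1.71 in the others. The CD8 genes Cd8a and Cd8b1, already counted among the 9 double-positive markers, rose by 0.98 and 1.35 (limma adjusted p 0.03 and 0.0252). Their median was 1.84 in batch 1 and 0.71 in batch 2. Of the B cell markers 2 of 6 were higher and 0 lower, with a median of 1.13 (1.59 in batch 1 and 0.71 in batch 2) and summed levels of 10.17 to 11.20 in knockout and 9.32 to 10.01 in wildtype samples. On that list KO4 had the smallest median shift, 0.54, against 0.81 in KO2, 1.48 in KO1 and 1.71 in KO3. The part of these cells in the granule results was not tested.

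Markers of other cells with granule proteases were mixed. The neutrophil protease genes Elane, Prtn3 and Ctsg and the peroxidase gene Mpo lay under the filter level of 4.54, while the 6 neutrophil markers that were tested all had differences above 0, with a median of 0.95 (2.72 in batch 1 and -0.30 in batch 2). None of the 6 was called, and Lcn2 (1.73, adjusted p = 0.0535 by limma) had all knockout samples above all wildtype samples. Their median shift was 2.02, 0.85, -0.61 and 2.27 in KO1 to KO4, against -0.86 to 0.89 in wildtype samples, and their summed levels were 8.12 to 10.91 in knockout and 7.75 to 9.82 in wildtype samples. Their part in the granule results was not tested. Of the mast cell and basophil markers 5 of 10 were under the filter, Mcpt4 and the receptor gene Ms4a2 among them. Of the 5 tested 0 were called (summed levels 8.02 to 8.31 in knockout and 8.09 to 8.56 in wildtype samples). Their median was -0.17, with 0.33 in batch 1 and -0.38 in batch 2. Ncr1, which defines natural killer cells, lay under the filter. Of the 7 natural killer cell markers tested 3 fell and 1 rose, against 3.37% and 7.88% of all genes tested. The summed levels of these markers were 12.53 to 12.87 in knockout and 13.51 to 13.77 in wildtype samples. The median of these 7 was -0.34, and it had opposite signs within batch 1 (0.22) and batch 2 (-0.70).

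The other genes of the granule pathway did not move one way. Their counts stand beside 3.37% of all genes tested called lower and 7.88% called higher, and no list was tested as a set. Of the 6 other granzymes, Gzmc alone passed the level filter, and it was not called (-0.68, SE 0.52, adjusted p = 0.403; -1.94 in batch 1 and 0.16 in batch 2). Of the 4 cathepsins linked to granzyme processing, Ctsw, a cathepsin of cytotoxic lymphocytes, fell by 0.92 and Ctsh rose by 1.95 on the log2 scale (adjusted p 0.0294 and 0.0225 by limma). Ctsc, the main activator of granzymes, had a difference of -0.42 (adjusted p = 0.143), with all knockout samples below all wildtype samples, and Ctsl one of 0.55 (adjusted p = 0.235).

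Of 6 other clade B serpins tested, Serpinb1a, an inhibitor of neutrophil serine proteases, fell by 1.91 on the log2 scale (adjusted p = 0.0265) and 0 rose. The next by p-value were Serpinb8 (0.41), Serpinb6a (0.29) and Serpinb9b (-0.37), none of them called (adjusted p 0.156 to 0.269). A further 7 of the 17 listed lay under the level filter, and 4 had no single-gene probe set. Serpinb9b is the chromosomal neighbour of Serpinb9.

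Of 22 genes of granule transport and exocytosis tested, 2 fell and 0 rose, against 3.37% and 7.88% of all genes tested. The median was -0.01. Sytl2 and Rab27a, which tether granules to the membrane, were the pair that fell. Sytl2 averaged 7.49 ± 0.28 in knockout cells (SD, n = 4) and 9.59 ± 0.11 in wildtype cells (SD, n = 5), with a fitted difference of -2.08 (SE 0.21, adjusted p = 0.00292 by limma). Rab27a averaged 8.80 ± 0.35 in knockout cells and 10.32 ± 0.48 in wildtype cells (fitted difference -1.49, SE 0.37, adjusted p = 0.0389). Vamp7 (1.04) and Wipf1 (-0.70) followed with adjusted p of 0.0628 and 0.0719. The priming and fusion genes Unc13d (-0.29), Stx11 (-0.63) and Stxbp2 (0.01) were not called (adjusted p 0.152 to 0.973).

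Of 6 genes of mannose-6-phosphate sorting and related routes, Gnptg, a subunit of the enzyme that makes the tag, fell by 1.03 and the sorting receptor gene Sort1 rose by 1.16 (adjusted p 0.0133 and 0.0197). Igf2r, a receptor for the tag, had 0.52 and Nagpa, which uncovers it, -0.51 (adjusted p 0.117 and 0.14). Of the 5 death receptor ligands, Fasl fell by 1.38 (adjusted p = 0.0167), and Tnfsf10 (-0.85), Ltb (-0.79) and Tnf (-0.46) were not called (adjusted p 0.0743 to 0.26).

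Of 14 regulators of granule genes tested, 3 fell and 2 rose, against 3.37% and 7.88% of all genes tested. Tbx21, which encodes T-bet, averaged 10.55 ± 0.34 in knockout cells (SD, n = 4) and 11.64 ± 0.13 in wildtype cells (SD, n = 5). Its fitted difference was -1.08 (adjusted p = 0.0276). Runx3 (-1.25) and Prdm1 (-1.503), which encodes Blimp-1, fell as well, and the repressor gene Bach2 (1.58) and Zeb2 (1.61) rose (adjusted p 0.0118 to 0.0385). Leaving out WT1 or KO1 again gave the same difference for a gene, and leaving out WT3, WT4 or WT5 left it unchanged. Of the 13 called genes in these 7 lists, Sytl2 alone kept its call without each of the 9 arrays in turn. Bach2, Gnptg and Prdm1 lost it without WT2 alone (adjusted p 0.076 to 0.15), Fasl, Zeb2 and Sort1 without WT1 or KO1 (adjusted p up to 0.0681), and Ctsh and Serpinb1a in 3 of the 9 fits, Ctsh without WT1, WT2 or KO1 and Serpinb1a without WT1, WT4 or KO1 (adjusted p up to 0.0893). Rab27a lost it without WT2, WT4, WT5, KO3 or KO4 (up to 0.469), Tbx21 in all but the fits lacking WT4, WT5 or KO2 (up to 0.106), and Ctsw and Runx3 with any array but WT2 and KO2 left out (up to 0.134).

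Within batches 1 and 2 all 13 kept their direction, and the sizes differed. The differences were -1.32 and -0.65 for Ctsw, 2.38 and 1.66 for Ctsh, -2.61 and -1.44 for Serpinb1a, and -1.95 and -0.99 for Fasl. Sytl2 had -2.31 and -1.92, and Rab27a, with -0.97 and -1.84, was one of the genes with the larger difference in batch 2. Gnptg had -1.10 and -0.98, and Sort1 1.66 and 0.82. Among the regulators they were -1.26 and -0.96 for Tbx21, -1.90 and -0.82 for Runx3, -1.492 and -1.51 for Prdm1, 1.203 and 1.84 for Bach2, and 2.15 and 1.24 for Zeb2.

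**Figure D4:**
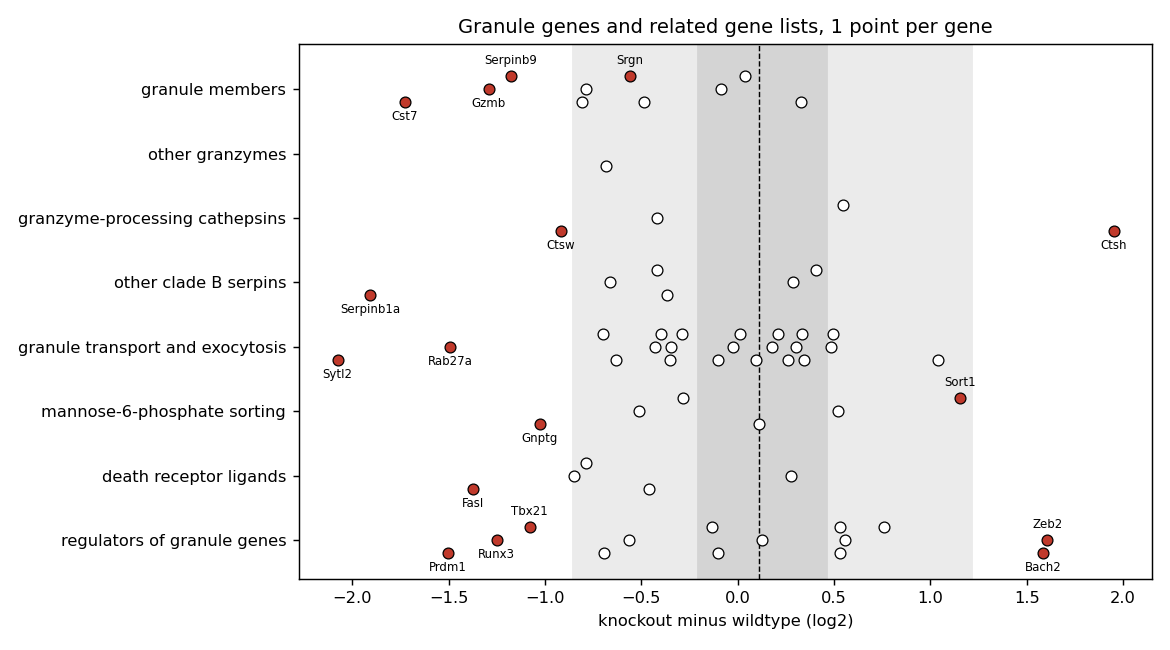
Knockout minus wildtype difference (log2, x axis) of the 10 granule genes and of the tested genes of 7 related lists, 1 point per gene, filled and named where limma's adjusted p was under 0.05. Grey bands span the 5th to 95th and the 25th to 75th percentiles of all genes tested (-0.86 to 1.22 and -0.21 to 0.46) and the dashed line is their median of 0.11.

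Profiles most like those of 3 members were sought as the smallest root mean square difference of centred log2 values over the 9 arrays. For Gzmb they were Slamf7 (0.09), a receptor of cytotoxic lymphocytes, and the interferon-inducible genes Epsti1 (0.10) and Irgm2 (0.11), against a median of 0.77 over all genes. These genes had differences of -1.28, -1.36 and -1.25, which the choice by profile over both genotypes makes close to that of Gzmb. For Gzma they were Itga10 (0.09), 2610306M01Rik (0.10) and Dcps (0.11), with a median of 0.38 over genes, and for Prf1 on its brighter probe set Apobec1 (0.07), Rai14 (0.08) and E430016F16Rik (0.08), with a median of 0.34. None of the 9 was a member.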

How the data were processed

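RNA of 9 samples was amplified with the Ovation Pico system, labelled with biotin and hybridised to an array of 45101 probe sets. The deposited log2 values were made by the authors with RMA, per the submitters' processing notes (no version is named). Whether a batch adjustment followed is not stated. Precision is limited by the number of arrays, which have no read depth.

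Gene names are those of the platform annotation given with the array: of the probe sets, 34945 had 1 gene, 932 several and 9160 none, and 64 were controls. The single-gene probe set of highest mean stood for each gene, and 14524 genes were tested, those whose mean exceeded 4.54, the 25th percentile over probe sets. Genotype and batch were fitted on all 9 arrays with limma 3.58.1 (R 4.3.3; lmFit and eBayes, two-sided, Benjamini-Hochberg at 0.05; 5 residual and 3.5 prior degrees of freedom). The same model was fitted to 26876 probe sets. The fit was tested on simulated data with independent errors and added batch shifts. The deposited values showed no such shifts, so the simulation does not measure the error of the calls made here. Arrays of the same group differed from each other with an SD of at least 0.3 (log2) over probe sets, so no sample was counted as a duplicate. The labels call the samples biological replicates and do not say whether each is 1 animal.

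The members and gene lists were chosen with earlier results of these data known. Named are all members, up to 4 genes of smallest p per pathway list, the 3 nearest profiles of Gzma, Gzmb and Prf1, and defining markers. The priming and fusion genes and all further called list genes were named after their values were seen, as were the T cell genes, and the test of batch differences and the motifs were added then. A shorter T-box motif and longer Runx and Ets motifs, each overlapping the one given, were also searched. The shorter T-box motif GGTGTG was in 5 of the 10 genes (19% of all windows). The longer Runx core TGTGGTT was in 3 of 10 (5.27%) and the longer Ets core CAGGAAG in 3 of 10 (13.3%). No protein sequences were used here.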

Additional observations from a re-analysis of the deposited data

Results flagged for a closer look

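Of 24 groups of arrays examined, 1 for each genotype and member probe set, 5 held a sample far from the others, and chance flags about 5% of such groups. KO2 was that sample in 3 of the 5. It read 12.40 for Srgn, against 12.19 in each other knockout sample, 5.21 for Gzmk, against 4.81 to 4.86 in the others, and 8.17 on the second Serpinb9 probe set, against 7.59 to 7.63 in the others. In each case KO2 lay nearer to wildtype than the other knockout samples. KO3 read 8.83 on the brighter Prf1 probe set, against 9.21 to 9.27 in the other knockout samples. WT4 read 11.98 for Gzmb, against 11.77 to 11.81 in the other wildtype samples. Without KO2, Srgn, Nkg7 and Gzmb had differences of -0.60, -0.93 and -1.42 (limma adjusted p 0.0384, 0.0114 and 0.00299).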

How the results depend on the processing

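In the 25 alternatives with a test, Gzmb, Srgn, Nkg7, Cst7, Serpinb9 and Serpinb6b had a difference below 0 each time, as had Gzmk in its 24. Signs changed for genes that were not called: Gzma to -0.26 without WT1, without KO1 and in batch 2 alone (leaving out 1 array gave -0.26 to 0.49), -0.0706 with array weights, -0.0473 after another quantile normalization and -0.0040 with batch as a random block, Gzmm to 0.0194 after that normalization, and Prf1 to -0.85 with the probe set of largest SD and -0.26 with the mean of its probe sets. Of 258 member differences under alternatives 9 changed sign, 26 lost a call and 20 gained one. Within batch 1, which has no test, 5 moved by more than the SD of the knockout samples. The remaining 198 kept their call and direction or, within batch 1, moved by less than that SD.

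Against 1634 genes, 4 members and 4 member probe sets called, there were 6342, 7 and 9 with no batch term, 10045, 7 and 9 with batch as a random block (estimated correlation -0.32; Prf1 was then called higher), 339, 0 and 1 without the batch 3 arrays, 336, 0 and 1 at an adjusted p of 0.01, and 0, 0 and 0 in batch 2 alone (limma, with 3 members and 3649 genes at an unadjusted p under 0.05). These gene counts are of either direction, and the member and probe set counts are of lower calls. Of all genes tested, 15.9% were called lower with no batch term and 26.7% with batch as a random block, against 3.37% in the main fit. Array weights gave 534 genes and 2 members (0.868% of all genes called lower), and an adjusted p of 0.1 gave 3033 genes and 7 probe sets. eBayes with trend gave 7 probe sets. Leaving out 1 array gave 851 to 2062 genes, 3 to 5 members and 4 to 7 probe sets, with medians of -0.87 to -0.50. In those fits 1.71% to 4.06% of all genes were called lower. The median of the members was -0.87 within batch 1, which has no replicates. Without WT2 or KO3, 965 and 851 genes were called.

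Higher genes made up 70.0% of calls, and 58.2% after another quantile normalization, 56.7% without WT2, 80.7% at an adjusted p of 0.01 and 82.0% without the batch 3 arrays. With the replicate number as a block, the replicate block fit called 4290 genes, 6 members and 8 probe sets, with 10.1% of all genes called lower. Same-numbered samples had correlations of -0.92, 0.09, 0.02 and 0.15 between their deviations, and the numbers were not taken as pairs. The -0.92 cannot bear on pairing. KO1 and WT1 are all of batch 1, and in values with no batch difference they mirror each other whether paired or not. Numbers 1 and 2 also share a batch between the genotypes, and numbers 3 and 4 do not. By these correlations 1 of 4 knockout samples correlated best with its own number. Signal over background was not measured.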
